A study of Homo sapiens and Mus musculus with 92 samples.

Results

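The genes described here are 38 HOX cluster genes of human cells. The symbols made of HOXA, HOXB, HOXC or HOXD and a number were taken from both count tables, which gave 39 of 28103 gene symbols, 38 of them reported here. The rule uses names and no measured value. The cells were HEL cells, an established human erythroleukemia line that carries no MLL1 rearrangement. RNA-seq of polyadenylated RNA had been done in 2 separate experiments. In the MLL1 experiment, 3 libraries of control cells stood against 3 libraries of MLL1 KD cells, in which MLL1 shRNA #1 had been used against KMT2A, the gene of MLL1. In the AF9 experiment, 2 libraries of control cells stood against 2 libraries of AF9 KD cells, in which AF9 shRNA #1 had been used against MLLT3, the gene of AF9. Control cells are WT by genotype in the labels and received a control shRNA according to the supplementary methods. Each knockdown rests on 1 shRNA in 1 cell line, and the labels do not say that replicates came from separate cultures, so p values measure only the spread between these libraries. In bulk RNA, fewer cells expressing a gene and less RNA per cell cannot be told apart.

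HOX genes encode homeodomain transcription factors that specify position along the body axis. They lie in 4 clusters, HOXA on chromosome 7, HOXB on chromosome 17, HOXC on chromosome 12 and HOXD on chromosome 2, and within a cluster the number in the name, the paralog group, rises from the anterior to the posterior end. MLL1 keeps HOX clusters active through histone methylation at their promoters, Polycomb complexes silence them, and AF9 works in elongation and DOT1L complexes that also act at HOX genes. In blood, HOX genes are active in stem and progenitor cells, where they act with cofactors of the TALE class such as MEIS1 and PBX3, and HOXA9 is a main target of MLL fusions in leukemia.

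One contact of MLL1 with chromatin is its CXXC zinc finger, which recognises CG dinucleotides that are free of methylation, so the CpG content at HOX starts is background to the comparisons below. RefSeq starts on GRCh38.p14 were at hand for 20 of the 38 genes, with 26 distinct starts in all (HOXC4 and HOXC5 share 1). The bases upstream of 4 of these starts are shown, those of HOXD13 and HOXD1, for which a knockdown comparison passed a test below, and those of HOXA9 and HOXB1, at or near 0 counts here. The 250 bases end just before the start, run 5′ to 3′ on the gene's own strand and have every CG in capitals. They lie at chr2:176092471-176092720 (plus strand), chr2:176188418-176188667 (plus strand), chr7:27165538-27165787 (minus strand) and chr17:48531012-48531261 (minus strand), in the order HOXD13, HOXD1, HOXA9 and HOXB1.
HOXD13: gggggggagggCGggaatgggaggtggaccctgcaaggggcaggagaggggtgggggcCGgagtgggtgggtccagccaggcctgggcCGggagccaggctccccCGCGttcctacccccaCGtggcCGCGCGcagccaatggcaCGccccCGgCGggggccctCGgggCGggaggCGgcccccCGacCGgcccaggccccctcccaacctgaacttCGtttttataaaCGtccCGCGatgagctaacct
HOXD1: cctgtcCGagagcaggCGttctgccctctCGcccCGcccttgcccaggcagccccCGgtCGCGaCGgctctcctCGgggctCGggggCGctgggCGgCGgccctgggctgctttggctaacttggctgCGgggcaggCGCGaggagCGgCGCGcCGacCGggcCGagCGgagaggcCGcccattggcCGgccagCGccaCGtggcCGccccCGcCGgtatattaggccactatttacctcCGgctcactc
HOXA9: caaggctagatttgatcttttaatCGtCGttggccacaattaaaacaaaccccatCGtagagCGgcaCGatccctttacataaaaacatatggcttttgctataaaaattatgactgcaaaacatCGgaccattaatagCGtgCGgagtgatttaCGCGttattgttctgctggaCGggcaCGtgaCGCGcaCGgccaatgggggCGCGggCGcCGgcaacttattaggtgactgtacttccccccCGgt
HOXB1: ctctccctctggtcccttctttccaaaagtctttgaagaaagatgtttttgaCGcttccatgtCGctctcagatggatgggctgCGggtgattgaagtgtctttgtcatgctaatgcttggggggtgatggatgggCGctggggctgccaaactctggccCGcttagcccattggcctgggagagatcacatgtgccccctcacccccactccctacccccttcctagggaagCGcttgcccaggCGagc

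The HOXD1 stretch held 31 CG dinucleotides, that of HOXD13 21, that of HOXA9 20 and that of HOXB1 7. Over 34943 starts of the RefSeq table the median was 11, with quartiles of 3 and 23, and 9.5% of starts held more CG than HOXD1. The 26 HOX starts had a median of 19.5 and ranged from 0 to 40. Among genes expressed in both experiments (defined below), 6 had a sequence, and none of these was a HOXB gene. Their median was 25.5 (11 to 40), from the start with the most CG where a gene had several. Among genes expressed in neither, there were 8 distinct ones, with a median of 18 (7 to 23), so the ranges overlapped. The letters TATAAA, searched on both strands, were found upstream of 5 HOX starts (19.2%) against 10.8% of all starts. The HOXD13 match lay 27 bases before the start and overlapped a match on the other strand. HOXD1 and HOXB1 had no match in these windows.

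HEL cells used the HOXB cluster more than the others (see the plot of levels by paralog group). A gene is called expressed here when its mean TPM (the share of a gene among all transcripts, per length) over the libraries of an experiment was at least 1. By this measure 25 of 38 HOX genes were expressed in the MLL1 experiment and 20 of 38 in the AF9 experiment, 19 of them in both. The HOXB genes summed to 799.5 TPM in the mean of the MLL1 controls and to 466 TPM in that of the AF9 controls, while the HOXA genes reported here summed to 56.6 and 60.6 TPM, HOXC genes to 39.2 and 9.59 TPM and HOXD genes to 39 and 53.7 TPM. The experiments have separate controls and were normalised apart, so these levels stand side by side without a test. All HOXB genes but HOXB1 were expressed in both experiments.

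**Figure D1:**
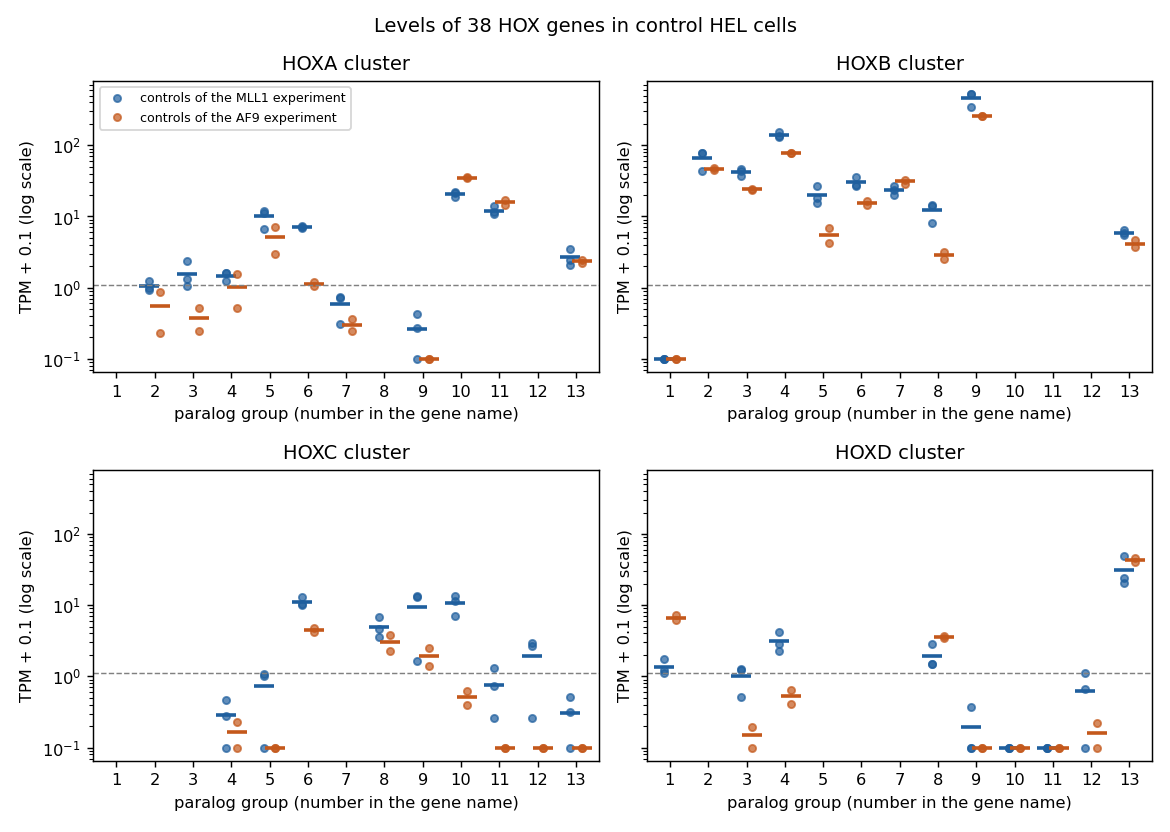
TPM plus 0.1 on a log axis of the 38 HOX genes in control HEL cells, by paralog group, with 1 panel per cluster. Points are the 3 control libraries of the MLL1 experiment (blue) and the 2 of the AF9 experiment (orange), bars are their means and the dashed line marks 1 TPM. Paralog groups without points have no gene reported here. HOXB9 stood highest in both sets, and HOXB1, HOXD10 and HOXD11 sat at 0.

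HOXB9, a posterior member, was the most abundant HOX transcript, at 460 ± 104 TPM (SD, n = 3) in the MLL1 controls and 259 ± 3.14 TPM (SD, n = 2) in the AF9 controls. HOXB4, known for expanding hematopoietic stem cells, came next at 139 ± 11.9 and 78.1 TPM, and HOXB2 followed at 66.5 ± 19.5 and 46.1 ± 1.81 TPM. Neither HOXB9 and HOXB4 nor HOXB4 and HOXB2 overlapped in any control library. Below them the order was not resolved: HOXB2 (44.1 to 78.6 TPM) and HOXB3 (36.8 to 46.2 TPM) overlapped in the MLL1 controls, and HOXB2 (44.8 and 47.4 TPM) and HOXD13 (40.8 and 45.5 TPM) overlapped in the AF9 controls. HOXD13, known for patterning the digits, was the only HOXD gene above 10 TPM in any library. It stood at 49.5, 24.3 and 20.3 TPM in MLL1 control replicates 1, 2 and 3. In the HOXA cluster HOXA10, a posterior gene active in myeloid progenitors, stood at 20.7 ± 1.84 and 34.8 ± 1.02 TPM, while HOXA2, HOXA3, HOXA4, HOXA7 and HOXA9 were each under 2 TPM in the means of both control groups.

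Of the other genes, 6 were expressed in the MLL1 experiment alone (HOXA3, HOXA4, HOXA7, HOXC10, HOXC12 and HOXD4) and HOXD1 in the AF9 experiment alone. HOXC10 had 34 to 86 counts in every library of the MLL1 experiment and 2 to 11 in the AF9 experiment. HOXC9 had 5 counts in MLL1 control replicate 1 against 41 and 45 in replicates 2 and 3, and HOXC12 had 1 against 18 and 17, so their levels rest on which replicate is read. The 12 genes expressed in neither experiment were HOXA2, HOXA9, HOXB1, HOXC4, HOXC5, HOXC11, HOXC13, HOXD3, HOXD9, HOXD10, HOXD11 and HOXD12. HOXB1, HOXD10 and HOXD11 had 0 counts in all 10 libraries. By counting error only, 0 counts allow up to about 3 expected counts in 1 library read alone, and about 3 over all 10 together. HOXA2 came closest to the threshold, at 0.98 TPM over the 6 MLL1 libraries.

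HOXA9 had 1, 0 and 2 counts in the MLL1 controls, 4, 5 and 1 counts in MLL1 KD cells and 0 counts in all 4 libraries of the AF9 experiment. HOXA9 was thus under the expression filter, and when every gene with at least 1 count was tested in the MLL1 experiment it was not called (adjusted p = 0.801, edgeR). Its RefSeq span, chr7:27162438-27165537 on the minus strand, lies within that of the readthrough gene HOXA10-HOXA9 (chr7:27162438-27180239), which is listed at 0 in all 10 libraries. Of the HOXA9 exon bases annotated in GENCODE version 44, 15.9% are shared with other genes. How reads in shared bases were counted is not given in the sources used here. HOXC5 (67.3% shared), HOXA4 (31.3%), HOXC4 (17.5%), HOXB6 (16.6%, with HOXB3) and HOXC6 (16.1%) carry the same limit. The 0 counts of HOXD11 (21.4%) and HOXD10 (18.2%), which share bases with each other, carry it too. Other HOX genes shared smaller parts or none. For HOXA9, counts near 0 therefore do not show that the gene was silent.

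Total counts per library were 6966345 to 10380241 in the MLL1 experiment and 12278989 to 14232408 in the AF9 experiment. Erythroid markers fitted the label of the cells: all 12 on the list passed the expression filter in both experiments, while of the epithelial markers 0 and 1 of 5 did, of fibroblast markers 1 and 1 of 7, of B cell markers 2 and 2 of 5, of T cell markers 1 and 1 of 5 and of monocyte and neutrophil markers 2 and 2 of 6. Megakaryocyte markers passed in 6 of 8 cases in both experiments, and JAK2, the kinase mutated in HEL cells, was expressed. In the MLL1 experiment replicate 1 of both groups stood apart from replicates 2 and 3, and this touched HOX genes directly. The summed level of the 38 genes was 764 TPM in control replicate 1 against 1041 and 997 TPM in the other two, and 584 TPM in KD replicate 1 against 990.4 and 988 TPM. HOXB9 made up 27.0% of it in KD replicate 1 and 44.5% to 52.1% in the other 5 libraries. The results of this experiment whose call the replicate number as a block changed are therefore also given with that block, and calls also with replicates 2 and 3 alone.

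**Figure D2:**
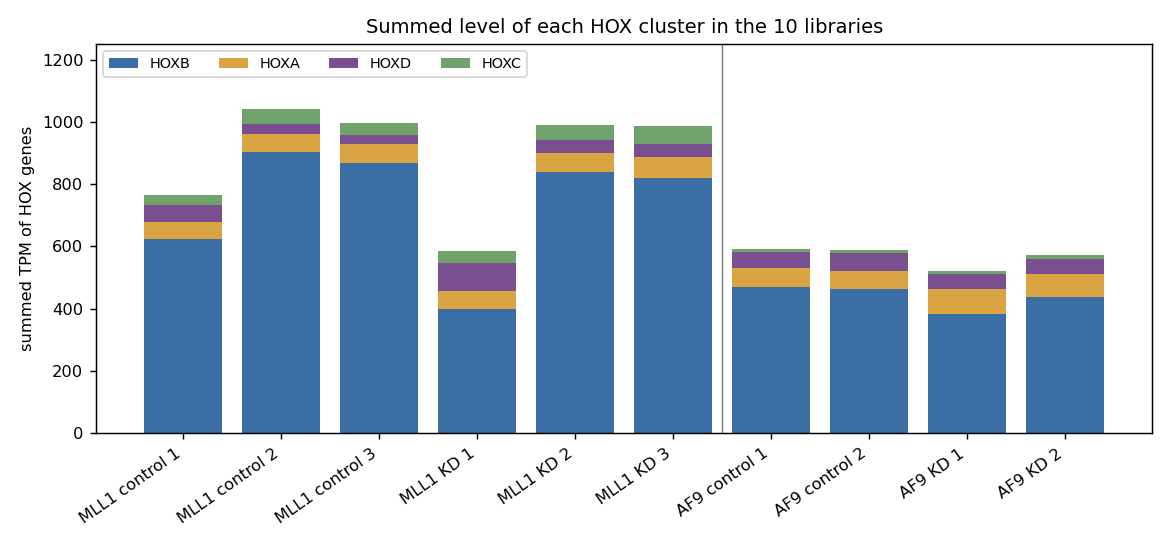
Summed TPM of the HOX genes of each cluster in each of the 10 libraries, stacked, with the vertical line between the experiments. HOXB genes gave 68.5% to 87.2% of the HOX total in every library, and replicate 1 of the MLL1 experiment had the lowest total within each of its groups.

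The first comparison asks which HOX genes changed when MLL1 was lowered. KMT2A itself stood at 1321, 1298 and 1256 CPM (counts relative to the TMM-scaled library total) in control cells and at 812, 814 and 833 CPM in MLL1 KD cells, a log2 fold change of -0.66 (SE 0.09, adjusted p = 0.072 without and 3.4e-07 with the block, edgeR). The remaining transcript was thus well above 0 in every KD library. No HOX gene was called in the edgeR fit without the block, 0 of 25 tested. A call needed a 1.5-fold change or more together with an adjusted p under 0.05. Over all genes that fit called 9 of 14394 (0.0625%), 1435 genes had an unadjusted p under 0.05, and DESeq2 called 218 genes (1.51%) and no HOX gene. Among HOX genes 1 had an unadjusted p under 0.05 in edgeR (HOXA7) and 1 had in DESeq2. With the replicate block, 2 of 25 HOX genes were called, HOXB6 lower and HOXD13 higher, against 4.72% of all genes (2.51% lower and 2.22% higher). With replicates 2 and 3 alone HOXD13 was called, 1 of 25, against 4.88% of all genes.

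HOXB6, a central gene expressed in early myeloid and erythroid cells, stood at 17.3, 24.9 and 19.0 CPM in control cells and at 8.22, 16.0 and 15.1 CPM in MLL1 KD cells (134, 180 and 149 against 83, 113 and 140 counts). All KD libraries were below all control libraries. The log2 fold change was -0.64 (SE 0.29, adjusted p = 0.519, edgeR) without and -0.66 (SE 0.17, adjusted p = 0.0153) with the block. With replicates 2 and 3 alone it was -0.50 (adjusted p = 0.0233), under the fold threshold, so HOXB6 was then no longer called.

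HOXD13 moved the other way. It stood at 30.0, 15.5 and 12.9 CPM in control cells and at 50.5, 20.4 and 23.2 CPM in MLL1 KD cells (232, 112 and 101 against 510, 144 and 215 counts). Replicate 1 was the highest library in both groups, KD replicates 2 and 3 were below control replicate 1, and each KD library was above the control of its own number. The log2 fold change was 0.69 (SE 0.43, 95% CI -0.31 to 1.70, adjusted p = 0.680, edgeR) without the block, 0.68 (SE 0.15, adjusted p = 0.00412) with it and 0.62 (adjusted p = 0.00342) in replicates 2 and 3 alone. Among its neighbours in the HOXD cluster, HOXD8 and HOXD4 had 2 to 15 counts per library and their groups overlapped, and HOXD12 had 0 to 7.

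**Figure D3:**
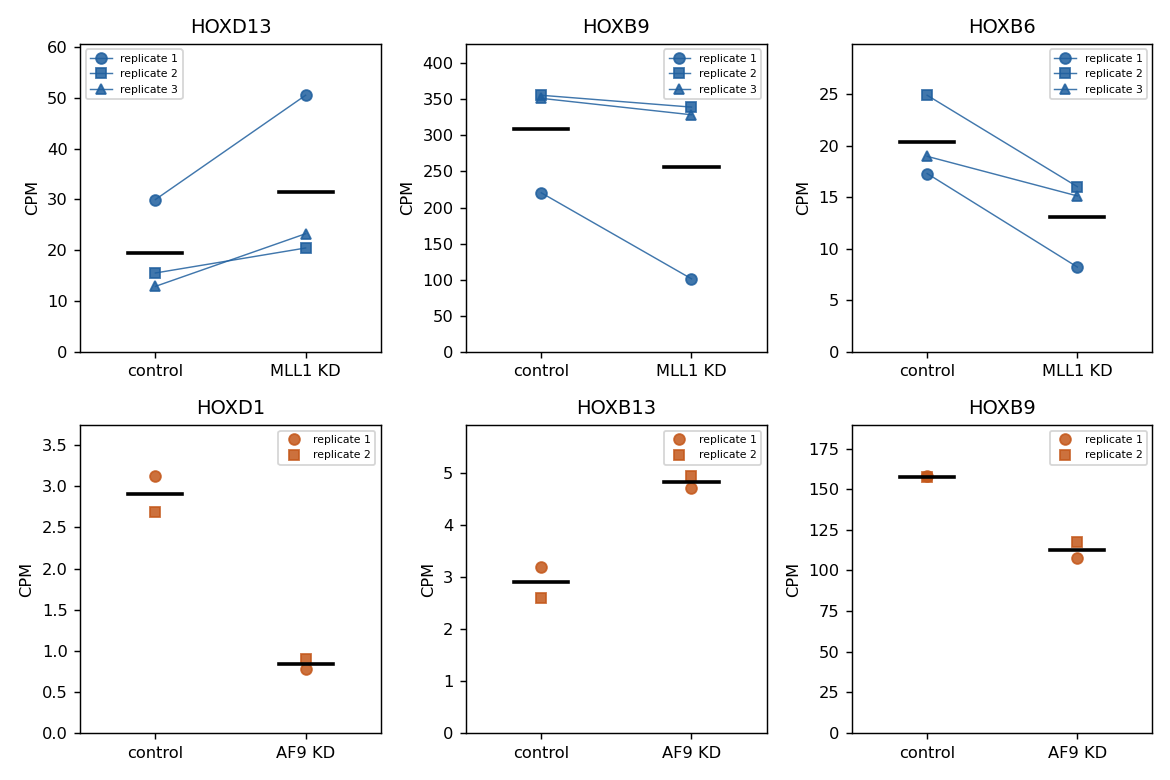
CPM in each library, from 0, of 3 HOX genes in the MLL1 experiment (top, lines join libraries of the same replicate number) and 3 in the AF9 experiment (bottom), with bars at group means. HOXD13 was higher and HOXB9 and HOXB6 were lower in the KD library of all 3 numbered pairs, while the pairs differed in level. HOXD1, HOXB13 and HOXB9 did not overlap between groups of 2.

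The abundant HOXB genes differed less. HOXB9 had 1707, 2571 and 2760 counts in control cells and 1021, 2393 and 3042 in MLL1 KD cells, 460 ± 104 against 382 ± 195 TPM (SD, n = 3). Its log2 fold change was -0.27 (SE 0.42, adjusted p = 0.908, edgeR) and turned to 0.11 when KD replicate 1 was left out. With the block it had an adjusted p of 0.047 at a log2 fold change of -0.41, under the fold threshold. HOXB4 stood at 139 ± 11.9 TPM in control and 117 ± 9.24 TPM in MLL1 KD cells (log2 fold change -0.26, SE 0.14, adjusted p = 0.611, and 0.0833 with the block). HOXB2 stood at 66.5 ± 19.5 against 70.1 ± 20.2 TPM and HOXB3 at 42.0 ± 4.82 against 40.3 ± 6.92 TPM, differences smaller than the spread between libraries. HOXB13, the most posterior HOXB gene, had 32 to 40 counts in control and 37 to 50 in KD cells (log2 fold change 0.12, SE 0.28).

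Only 3 of 25 HOX genes had KD and control libraries that did not overlap (12%), 2 of them lower and 1 higher, against 17.7% of all genes tested (9.08% lower and 8.64% higher). Besides HOXB6 these were HOXA4 and HOXA7, both near the expression threshold. HOXA4 had 5, 5 and 4 counts in control and 2, 3 and 4 in MLL1 KD cells, and after scaling all KD values were lower (log2 fold change -0.81, SE 0.63, adjusted p = 0.763, edgeR). HOXA7 had 1, 3 and 3 counts in control and 6, 9 and 9 in MLL1 KD cells. Its control libraries were all at or under 3 counts, so no fold is given, and its adjusted p was 0.501 without and 0.242 with the block. For a single gene, the exact permutation test over 3 against 3 libraries (two-sided) cannot go below 0.1, the value these 3 genes had.

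By direction, 12 of the 25 log2 fold changes were negative and 13 positive, with a median of 0.0061 against 0.01 over all genes. This balance rested on single libraries: without control replicate 1 it was 17 negative and 10 positive (median -0.15), without KD replicate 1 it was 8 and 18 (median 0.20), and with the block 13 and 12. Of the 6 expressed anterior genes (paralog groups 1 to 4) 5 had a negative value, and all 5 expressed HOXC genes had a positive one, none of them past the test. HOXC6 was at 0.32 (SE 0.19), HOXC8 at 0.46 (SE 0.33) and HOXC10 at 0.25 (SE 0.30). The values of 12 genes (HOXA5, HOXA13, HOXB2, HOXB3, HOXB7, HOXB8, HOXB9, HOXB13, HOXC9, HOXC12, HOXD4 and HOXD8) changed sign when 1 of the libraries was left out, so their directions are not settled. The HOXA genes had 4 negative and 4 positive values, and HOXA10, at 20.7 ± 1.84 TPM in control and 19.3 TPM in KD cells, had a log2 fold change of -0.11 (SE 0.20).

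The remaining expressed genes overlapped in CPM between control and MLL1 KD cells. In the HOXA cluster, HOXA3 had 8, 10 and 20 counts in control and 7, 9 and 7 in KD cells, HOXA5 22 to 42 and 31 to 61, HOXA6 17 to 18 and 21 to 38, and HOXA11 54 to 72 and 65 to 115. The HOXA6 groups overlapped only after scaling, at 2.29 to 2.35 CPM in control and 2.08 to 4.25 CPM in KD cells. HOXA3, HOXA5, HOXA6 and HOXA11 lie on both sides of HOXA9, which had 0 to 5 counts per library here. None of them moved beyond the spread of its libraries. In the HOXB cluster, HOXB5 had 56 to 95 counts in control and 57 to 75 in KD cells, HOXB7 59 to 84 and 57 to 107, and HOXB8 37 to 69 and 10 to 102. The lowest HOXB8 value was that of KD replicate 1, the library in which HOXB9 was lowest as well.

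**Figure D4:**
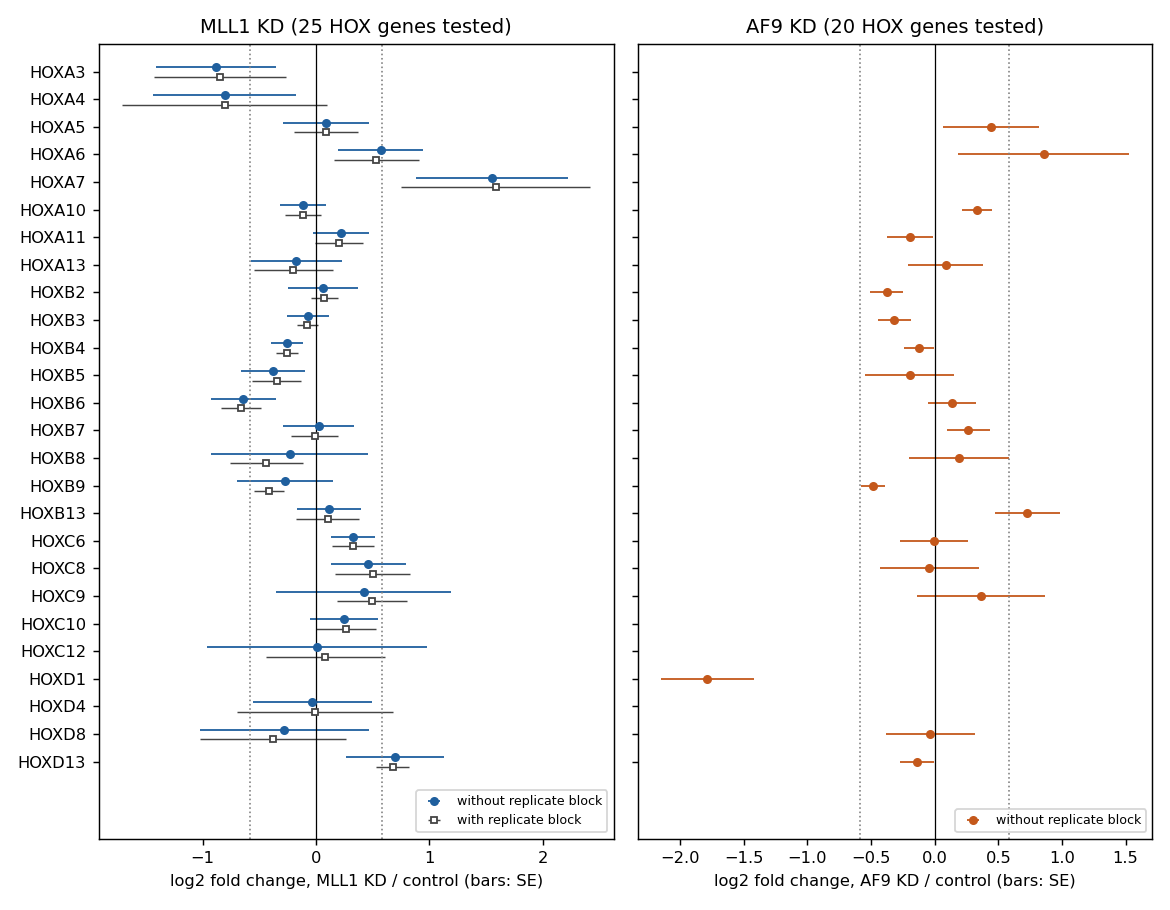
Log2 fold changes of KD over control for the 25 HOX genes tested in the MLL1 experiment (left, filled without and open with the replicate block) and the 20 tested in the AF9 experiment (right). Bars are standard errors and dotted lines mark a 1.5-fold change. The block shortened the bars of HOXD13 and HOXB9 in the MLL1 experiment, and HOXD1 lay farthest from 0 in the AF9 experiment.

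The second comparison asks the same for AF9. MLLT3 fell from 547 and 527 CPM in control cells to 107 and 92.5 CPM in AF9 KD cells (log2 fold change -2.43, SE 0.11, adjusted p = 3.2e-08, edgeR). Of 20 HOX genes tested, 2 were called, HOXD1 lower and HOXB13 higher, against 13.1% of all 13333 genes tested (5.06% lower and 8.02% higher). The share of HOX genes called was thus close to that of all genes. Libraries of both groups did not overlap for 11 of 20 HOX genes (55%), 7 of them lower and 4 higher in AF9 KD cells, against 66.1% of all genes (33.3% lower and 32.8% higher).

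HOXD1, the most anterior gene of the HOXD cluster, was the HOX gene with the largest change. It had 43 and 32 counts in control and 10 and 12 in AF9 KD cells, or 3.12 and 2.68 against 0.77 and 0.90 CPM. Both KD libraries were far below both controls. The log2 fold change was -1.79 (SE 0.36, 95% CI -2.57 to -1.01, adjusted p = 0.00283, edgeR), and it stayed called when any of the 4 libraries was left out (-1.89 to -1.67, adjusted p at most 0.0248). HOXD1 lay at 6.56 ± 0.757 TPM in control and 2.03 ± 0.243 TPM in KD cells (SD, n = 2), so a low transcript became lower. HOXD8, in the same cluster, had 30 and 25 counts in control and 20 and 35 in KD cells and overlapped. HOXD13, at the opposite end, had 317 and 310 against 291 and 293 counts (log2 fold change -0.14, SE 0.13, adjusted p = 0.461).

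HOXB13, known from the prostate and tail region and the most posterior gene of its cluster, had 44 and 31 counts in control and 61 and 66 in AF9 KD cells, or 3.19 and 2.60 against 4.72 and 4.94 CPM. The groups did not overlap, and the log2 fold change was 0.73 (SE 0.26, 95% CI 0.18 to 1.28, adjusted p = 0.048, edgeR). The call is at the edge of the threshold. It was lost when any of the 4 libraries was left out (0.59 to 0.89, adjusted p 0.0517 to 0.287), in DESeq2 (adjusted p = 0.207 after fitting all genes, a fit that called HOXD1 and 10.1% of all genes) and with GC content offsets (0.50, adjusted p = 0.156). HOXB13 had the call in 8 of 17 settings and HOXD1 in 15 of 16.

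Smaller shifts were seen in more abundant genes. Without a fold threshold 5 of 20 HOX genes had an adjusted p under 0.05, HOXD1 and HOXB13 among them, against 3863 of 13333 genes (edgeR). HOXB9 stood at 158 and 157 CPM in control and 108 and 117 CPM in AF9 KD cells (2175 and 1874 against 1395 and 1570 counts). The log2 fold change of -0.48 (SE 0.09, adjusted p = 0.00208, edgeR) fell short of the 1.5-fold threshold, and passed it with GC content offsets (-0.61, adjusted p = 1.7e-04), when 7.78% of all genes were called. HOXB2, with 354 and 328 counts in control and 258 and 281 in KD cells, had a log2 fold change of -0.38 (SE 0.13, adjusted p = 0.0435). HOXA10, with 406 and 371 against 502 and 500 counts, had one of 0.33 (SE 0.12, adjusted p = 0.0476). Both were under the fold threshold. HOXB3 was at -0.32 (SE 0.13, adjusted p = 0.0863), HOXB7 at 0.27 (SE 0.17) and HOXB4 at -0.12 (SE 0.12, adjusted p = 0.464). With GC content offsets HOXB3 was at -0.43 (adjusted p = 0.0124) and HOXB4 at -0.35 (adjusted p = 0.0176, edgeR), still under the fold threshold.

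The other genes tested in the AF9 experiment were not called, and 8 of the 20 (HOXA5, HOXA13, HOXB5, HOXB6, HOXB8, HOXC6, HOXC8 and HOXD8) changed sign when 1 library was left out. HOXB6, called lower in MLL1 KD cells with the block, had 139 and 106 counts in control and 118 and 157 in AF9 KD cells, groups that overlapped (log2 fold change 0.14, SE 0.19). HOXA11 had 145 and 109 against 113 and 113 counts, HOXA13 34 and 34 against 33 and 41, and HOXA5 39 and 14 against 40 and 33. HOXA5 shows the spread that 2 libraries of 1 group can have at such depth. HOXB5 had 40 and 22 counts in control and 22 and 33 in KD cells, and HOXB8 19 and 21 against 16 and 31. The HOXC genes stayed low, with 45 and 45 against 43 and 49 counts of HOXC6, 17 and 25 against 18 and 24 of HOXC8 and 13 and 6 against 10 and 15 of HOXC9.

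The 4 expressed anterior genes, HOXB2, HOXB3, HOXB4 and HOXD1, all had negative log2 fold changes in AF9 KD cells, also with total counts or GC content offsets, and HOXD1 was the only one called. Over the 20 genes 11 values were negative and 9 positive, with a median of -0.02 against 0.01 over all genes. With total counts 8 of 20 were negative and with GC content offsets 13 of 20 were. The balance of directions thus depended on the scaling and moved both ways. HOXA6, with 4 and 4 counts in control and 10 and 5 in KD cells (log2 fold change 0.85, SE 0.67), shows how little low counts can resolve. The summed level of the 38 genes was 593 and 587 TPM in control and 521 and 574 TPM in AF9 KD cells, and HOXB9 made up 44.1% and 43.8% of it in control and 36.3% and 36.7% in KD cells. The exact permutation test over 2 against 2 libraries (two-sided) cannot go below 0.333.

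In the AF9 experiment the fold change of a gene moved with its GC content. Over all genes tested, Spearman's rho of log2 fold change and exon GC content was 0.49, as a description across genes, which are not independent replicates, against -0.07 in the MLL1 experiment. HOX genes are rich in GC, with a median of 54.9% among those tested in the AF9 experiment against 48.1% of all genes. Genes of 52% to 56% GC had a median log2 fold change of 0.09, and those of 56% to 60% one of 0.23. HOXB13 and HOXA6 lay above the middle of genes of like GC content, and HOXB9 and HOXD1 below it. With GC content offsets HOXD1 was at -1.93 (adjusted p = 0.00193, edgeR), HOXA10 at 0.23 (adjusted p = 0.0997) and HOXB2 at -0.53. The part of GC content in each HOX result was not tested beyond these offsets.

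**Figure D5:**
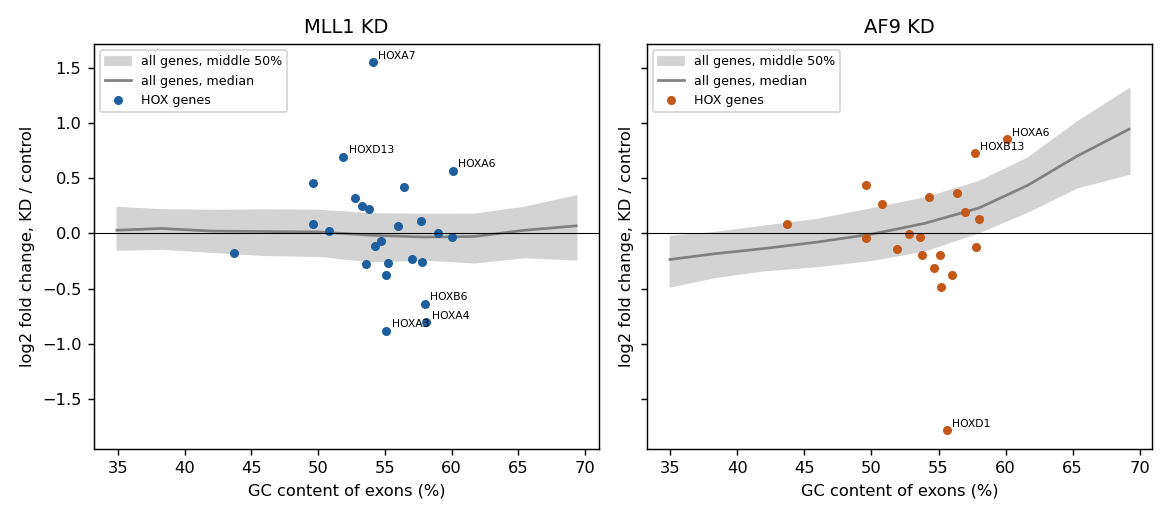
Log2 fold change against exon GC content in percent for the HOX genes (points) in the MLL1 experiment (left) and the AF9 experiment (right), over the median (line) and middle 50% (grey) of all genes tested in bins of GC content. The line was flat on the left and rose on the right, and HOXD1 lay far below it.

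The effects of both knockdowns were then set against each other, each taken relative to its own controls. No HOX gene was called in this test, 0 of 26, against 0.62% of 14996 genes, and 1 of 26 had an unadjusted p under 0.05 (HOXA3). HOXD1, which fell in AF9 KD cells, had 6, 4 and 4 counts in control and 1, 3 and 4 in MLL1 KD cells and was too low to be tested there alone. Its difference, MLL1 effect minus AF9 effect, was 0.82 on the log2 scale (SE 0.80, adjusted p = 0.713, edgeR), so a fall in one experiment and not in the other was not shown. HOXB13 had a difference of -0.61 (SE 0.39, adjusted p = 0.525) and HOXA10 one of -0.44 (SE 0.26, adjusted p = 0.478). HOXD13 had a difference of 0.85 (SE 0.58, adjusted p = 0.556) without the block. With the replicate block, 2 of 26 HOX genes were called, against 13% of all genes. They were HOXD13 at 0.83 (SE 0.20, adjusted p = 0.00534) and HOXB6 at -0.78 (adjusted p = 0.0454, edgeR). In this fit the block also joined AF9 libraries of the same number, which were not taken as pairs in the AF9 comparison. With replicates 2 and 3 alone in the MLL1 experiment, HOXD13 remained called (0.78, adjusted p = 0.00797) and HOXB6 did not (-0.62, adjusted p = 0.0899), against 14.5% of all genes.

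The genes that work with or on HOX genes were described from lists. Of the TALE cofactors 9 of 11 were tested in each experiment and none was called, against 0.0625% of all genes in MLL1 KD and 13.1% in AF9 KD cells. TGIF2 and MEIS2 were the most abundant, and TGIF2 had 129 to 137 CPM in control and 133 to 153 CPM in MLL1 KD cells. MEIS1, the partner of HOXA9 in leukemia, stood at 76.8, 64.2 and 63.7 CPM in control and at 41.2, 37.7 and 38.9 CPM in MLL1 KD cells. The groups were well apart, and the log2 fold change of -0.80 (SE 0.14) had an adjusted p of 0.124 without and 4.9e-05 with the block (edgeR). MEIS1 was the 1 call among the 9 TALE genes tested with the block, against 4.72% of all genes (2.51% lower). In AF9 KD cells MEIS1 was at -0.49 (SE 0.15, adjusted p = 0.0226) and PBX3 at -0.52 (SE 0.13, adjusted p = 0.00925), both under the fold threshold. Without that threshold 3863 of 13333 genes had an adjusted p under 0.05 there, 1940 of them lower (edgeR).

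Among 16 genes of the MLL1 and DOT1L axis, AF9 KD cells had 2 called, MLLT3 itself and MEN1, the gene of menin, the scaffold that ties MLL1 to chromatin, against 13.1% of all genes called. MEN1 rose from 45.4 and 50.5 to 78.3 and 70.6 CPM (log2 fold change 0.64, SE 0.11), and was at 0.26 (adjusted p = 0.0848, edgeR) with GC content offsets. In MLL1 KD cells none of the 16 was called, and with the block KMT2A, the targeted gene, was, against 4.72% of all genes. Of the Polycomb genes, 4 of 21 were called in AF9 KD cells (1 lower and 3 higher, against 5.06% and 8.02% of all genes). The chromobox genes CBX2 (0.97), CBX6 (0.84) and CBX8 (1.14), which read the repressive histone mark, were higher, and PHC3 (-0.67), a Polyhomeotic subunit, was lower. These 4 values are without GC content offsets, in an experiment whose fold changes rose with GC content. The part of GC content in them was not tested. In MLL1 KD cells 0 of 22 were called, and with the block CBX2 was, against 2.22% of all genes called higher with it. CBX2 stood at 10.8, 9.13 and 11.1 CPM in control and 22.3, 14.9 and 13.3 CPM in KD cells (adjusted p = 0.0215 with the block, edgeR). The core methyltransferase genes EZH1 and EZH2 were not among the calls.

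Of 26 noncoding, antisense and other small genes inside the clusters, 9 were tested in the MLL1 experiment, none of them called, and 8 in the AF9 experiment, 1 of them called, against 13.1% of all genes. That gene was PRAC2, which lies beside HOXB13. It had 45 and 32 counts in control and 82 and 62 in AF9 KD cells (log2 fold change 0.87, SE 0.27, adjusted p = 0.0248, edgeR), so both neighbours were higher. With GC content offsets PRAC2 was at 0.72 (adjusted p = 0.059) and was no longer called, as HOXB13 was not. HOTTIP, transcribed from the posterior end of the HOXA cluster, stood at 10.2, 11.2 and 10.9 CPM in control and 5.44, 7.80 and 8.64 CPM in MLL1 KD cells, groups that did not overlap (log2 fold change -0.57, SE 0.23, adjusted p = 0.479 without and 0.0753 with the block). HOXA13, the gene next to it, had 19 to 35 counts in control and 19 to 39 in MLL1 KD cells, and the groups overlapped. HOTTIP is outside the rule for named genes and was chosen after its values were seen.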

How the data were processed

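Per the labels and the submitters' processing notes, the authors filtered reads of 10 polyA, strand-specific RNA-seq libraries with fastp 0.13.1, mapped them to hg38 with HISAT2 2.1.0 and counted them per gene symbol with featureCounts 1.6.1. They deposited raw counts for 28103 genes in 1 table per experiment. The annotation they used, and how reads shared by genes were counted, are not given in the sources used here. Other assays of the study were not analysed here.

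TPM was computed from merged exon lengths of GENCODE version 44, in which all 38 HOX genes reported and 92.3% of symbols matched. Per experiment, genes whose TPM averaged 1 or more (CPM for genes without a length) were tested with R 4.3.3 and edgeR 4.0.16 (TMM, glmQLFit, glmQLFTest, two-sided, Benjamini-Hochberg over all genes tested). A call needed a 1.5-fold change and an adjusted p under 0.05. The study used DESeq2 (version 1.42.0 here), which was an alternative. The difference of both effects was a contrast over all 10 libraries. The fit was tested on simulated counts. Promoter sequences came from RefSeq on GRCh38.p14, read with Python 3.11.15, and figures were drawn with matplotlib 3.10.9.

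Of the 39 HOX genes of the rule 1 is not reported here or counted among the members, though it stayed in the fits. The other 38 were accounted for, and from the other lists the genes called in either experiment or else the 2 most highly expressed were named. Genes called with the block alone, PBX3 and HOTTIP fall outside this rule. Lists cover TALE cofactors, the MLL1 and DOT1L axis, Polycomb genes, CDX and retinoic acid genes, noncoding genes, cluster neighbours, other homeobox genes and cell type markers. The members and lists were chosen with earlier results of these data known. Alternatives were DESeq2 on the same or all genes, its size factors, total counts, other filters and fold thresholds, GC content offsets (lowess, span 0.3), a block for the replicate number, and the omission of each library, and, added after seeing the data, replicates 2 and 3 alone and GC content offsets for the difference.

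In the MLL1 experiment, deviations from the group means in same-numbered control and KD libraries correlated at 0.648, 0.326 and 0.352, so the numbers were taken as pairs. Those of replicate 1 with the other numbers lay between -0.509 and -0.454, and those between replicates 2 and 3 were 0.359 and 0.369, so the pairing rests on replicate 1 and does not order replicates 2 and 3.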

Additional observations from a re-analysis of the deposited data

How the results depend on the processing

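Calls in the MLL1 experiment depended on the fit and on replicate 1. The 9 genes called there became 232 with DESeq2 on the same genes, 218 with DESeq2 on all genes, 32 with every gene of at least 1 count, 680 with the replicate block, 667 with the block and GC content offsets, 704 with replicates 2 and 3 alone (chosen after seeing the data) and 0 to 53 with 1 library left out. HOX genes called, 0 without the block, were 2 with the block, 2 with the block and GC content offsets and 1 with replicates 2 and 3 alone, and for the difference between the knockdowns 2 with the block and 1 with replicates 2 and 3 alone. The block changed no other HOX call.

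In the AF9 experiment, same-numbered libraries correlated at 0.156, and with 2 pairs the numbers were not taken as pairs. The block in the difference between the knockdowns joined them all the same. With the block 1957 genes (14.7%) and the same 2 HOX genes were called. The 1743 genes called became 3863 without a fold threshold, 510 at a fold of at least 2, 1037 with GC content offsets, 1134 with these and the block, and 1053 to 1971 with 1 library left out. The split of 674 lower and 1069 higher became 440 and 1414 with total counts and 555 and 482 with GC content offsets. HOX genes called, 2 in the report, were 0 with DESeq2 on the same genes (where HOXD1 got no adjusted p), 1 with DESeq2 on all genes, 1 at a mean TPM of at least 5 (where HOXD1 was not tested), 5 without a fold threshold, 1 at a fold of at least 2 and 1 with any 1 library left out. A mean TPM of at least 5 left 12 HOX genes expressed. Total counts moved the median difference between the knockdowns over all genes from -0.01 to -0.11.

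With 1 library left out, 12 of 25 HOX fold changes turned sign in the MLL1 experiment and 8 of 20 in the AF9 experiment. Among them were HOXB2 (-0.18 without MLL1 control replicate 1 and without MLL1 KD replicate 3, range -0.18 to 0.28 with 1 library left out), HOXB9 (0.11 without MLL1 KD replicate 1, range -0.52 to 0.11) and HOXB13 (-0.019 without MLL1 KD replicate 2, range -0.019 to 0.30), and in the AF9 experiment HOXB6 (-0.11 with GC content offsets, with or without the block, and -0.053 without AF9 KD replicate 2, range -0.053 to 0.31). None of these was called in the comparison concerned, and the cause was not tested. Genes under about 10 counts per library had wide errors, as HOXA4 did (SE 0.63).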

Other observations

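Genes flanking the HOX clusters gave values of their own. Of 31 listed, 27 were in the tables, and 24 and 23 were tested in the MLL1 and AF9 experiments. None was called in MLL1 KD cells without or with the block (0.0625% and 4.72% of all genes were), and 3 fell in AF9 KD cells, where 5.06% of all genes were called lower. JAZF1, a zinc finger gene near the HOXA cluster, stood at 45.3 and 42.4 CPM in control and 14.6 and 15.5 CPM in AF9 KD cells (log2 fold change -1.54, SE 0.13, adjusted p = 7.0e-06, edgeR). TAX1BP1, also near HOXA, was at -0.67 (SE 0.10), and LNPK, near HOXD13, fell from 87.1 and 82.8 to 50.0 and 47.6 CPM (-0.80, SE 0.10). The HOX genes closest to these, HOXA13 and HOXD13, were not called.

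Of 25 other homeobox genes, 12 were tested in each experiment. In AF9 KD cells 1 was called, against 13.1% of all genes (5.06% lower). HHEX, a regulator of early blood and endothelial cells, fell in AF9 KD cells from 166 and 150 to 100 and 106 CPM (log2 fold change -0.62, SE 0.10, adjusted p = 4.97e-04, edgeR). None was called in MLL1 KD cells without the block. With it 2 of 12 were called, DLX2 and EMX2, both lower, against 2.51% of all genes called lower. Of 16 CDX and retinoic acid genes, 6 were tested in each experiment and none was called without the block. RARA, the retinoic acid receptor alpha gene, stood at 168, 204 and 197 CPM in control and 167, 174 and 190 CPM in MLL1 KD cells. NR2F2, an orphan nuclear receptor gene, stood at 154, 120 and 102 CPM in control and 339, 188 and 184 CPM in MLL1 KD cells. These groups did not overlap (0.92, SE 0.27, adjusted p = 0.292 without and 3.1e-06 with the block, edgeR). Of all genes 8.64% were higher without overlap there. NR2F2 was the 1 of 6 called with the block, against 2.22% of all genes called higher. With the block RXRA was also called in AF9 KD cells, as were 1957 of all 13333 genes tested.

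Erythroid markers are the label's own cell type. Their summed level was 4429 to 6716 TPM in control and 3040 to 4950 TPM in MLL1 KD cells, where 0 of 12 were called without and 5 with the block, all lower, against 2.51% of all genes called lower with it. It was 44063 to 44447 TPM in control and 31319 to 38431 TPM in AF9 KD cells, with 2 lower and 2 higher, against 5.06% and 8.02% of all genes. Of 6 megakaryocyte markers tested, 1 (THBS1) was called higher in AF9 KD cells, against 8.02% of all genes. With the block, 2 of 6 (PF4 and THBS1) were called higher in MLL1 KD cells, against 2.22% of all genes. The list did not rise as a whole there. Its summed level was 1883 to 2277 TPM in control and 1607 to 2020 TPM in MLL1 KD cells. ITGA2B went the other way, from 1353, 1457 and 1448 CPM in control to 1047, 1233 and 1249 CPM in MLL1 KD cells. Of 2 monocyte and neutrophil markers tested, 1 (ITGAM) was called higher in AF9 KD cells, against 8.02% of all genes. ITGAM had 16 and 12 counts in control and 30 and 46 in AF9 KD cells. LYZ, the other marker, went the opposite way, from 92.7 and 86.1 CPM in control to 64.2 and 71.9 CPM in AF9 KD cells. In MLL1 KD cells neither was called without or with the block. The part of these markers in the HOX results was not tested.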
